A study of Mus musculus with 15 samples.

Results

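The oxygen-sensing pathway around Vhl was followed through RNA immunoprecipitation (RIP) libraries of mice that carry a dominant Dnmt1 mutation; the Dnmt1 protein copies methylation marks on to newly made DNA. The 8 genes are Vhl, Hif1a, Epas1, Arnt, Hif1an, Egln1, Egln2 and Egln3, of 31017 genes in each count table, and they were taken by symbol. Vhl was chosen by its measured levels in these data, since it stood out by evidence in the Dnmt1 RIP of homozygous against wild type fibroblasts. The other 7 genes were added for their known roles. Levels of Vhl in the Dnmt1 RIP by genotype, and of all 8 genes in homozygous against wild type, are therefore given as a description with no test.

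The 15 libraries came from 2 tissues and 2 antibodies. Tail fibroblast lines of wild type (WT), heterozygous (Het) and homozygous (Hom) littermates were fixed in 1% formaldehyde and precipitated with an antibody against Dnmt1 (Dnmt1 RIP), with 2 libraries for each genotype. An antibody against 5-methylcytosine, a modified RNA base, was used on isolated messenger RNA (m5C RIP) of fibroblasts, with 2 WT libraries and 1 for each mutant genotype, and of cortex, with 1 library for each genotype. Each tissue has 1 library titled input, whose antibody label names IgG, and whose genotype is given only as input. The mutation itself is not given in the labels, nor is the age of the animals. Whether same-group libraries came from different lines or mice is not stated in the labels, so p-values here reflect only how far these libraries scatter, which can be technical scatter. With no input for each genotype, more RNA bound and more RNA present cannot be told apart, and neither can fewer cells of a type and less RNA per cell.

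In cells with enough oxygen, prolyl hydroxylases of the Egln family mark the alpha subunits of hypoxia-inducible factor (HIF), Hif1a and Epas1, and Vhl binds the marked subunit and directs it to a ubiquitin ligase for destruction. When oxygen falls, the alpha subunit escapes, pairs with Arnt and switches on genes for glycolysis, vessel growth and matrix modification through sites with the core ACGTG. This control acts mostly on protein, so levels of these messenger RNAs are not levels of HIF activity.

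Total gene counts ran from 217173 to 4913482 per library. The lowest were a WT Dnmt1 RIP library and fibroblast input (228852 counts, 6006 genes detected). Lars2, Gm42418, Gm26917 and Gm10800, genes that dominate some libraries, took 4.01 to 63.5% of counts, with the highest share in Hom Dnmt1 RIP library 1. Levels are therefore given as CPM (counts scaled to a common library total) of all gene counts other than these 4 genes, unless stated. The fibroblast m5C RIP table of WT library 1 was at or above the Hom table in 31017 of 31017 genes, and 7163 of 19511 genes with counts in Hom had the same count in both. All 8 pathway genes were at or above, by 66 counts in sum. Whether the 2 libraries share reads was not tested. The 2 tables cannot be taken as independent samples, although the main fits treat them so. The main estimates and counts that rest on them are also given without WT library 1. That keeps the Hom table, whose standing as a separate Hom sample is not known. The Dnmt1 RIP libraries, labelled fibroblast, held all 10 neuron markers at a summed level of 2625 to 4275 CPM, against 420 to 892 CPM in fibroblast m5C RIP and 7161 to 7359 CPM in cortex m5C RIP. The 12 fibroblast markers summed to 1123 to 23128 CPM in the Dnmt1 RIP, 27723 to 35409 CPM in fibroblast m5C RIP and 659 to 745 CPM in cortex m5C RIP. The 10 macrophage or microglia markers summed to 7225 to 13372 CPM in fibroblast m5C RIP, 176 to 5062 CPM in the Dnmt1 RIP and 158 to 176 CPM in cortex m5C RIP. In the plot of marker sums the Dnmt1 RIP libraries stand between the m5C RIP libraries of both tissues on the neuron genes. Fibroblast input stands there too, at 1661 CPM for neuron markers. Its fibroblast markers summed to 2376 CPM and its macrophage or microglia markers to 315 CPM, so these sums are not particular to the Dnmt1 RIP.

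**Figure D1:**
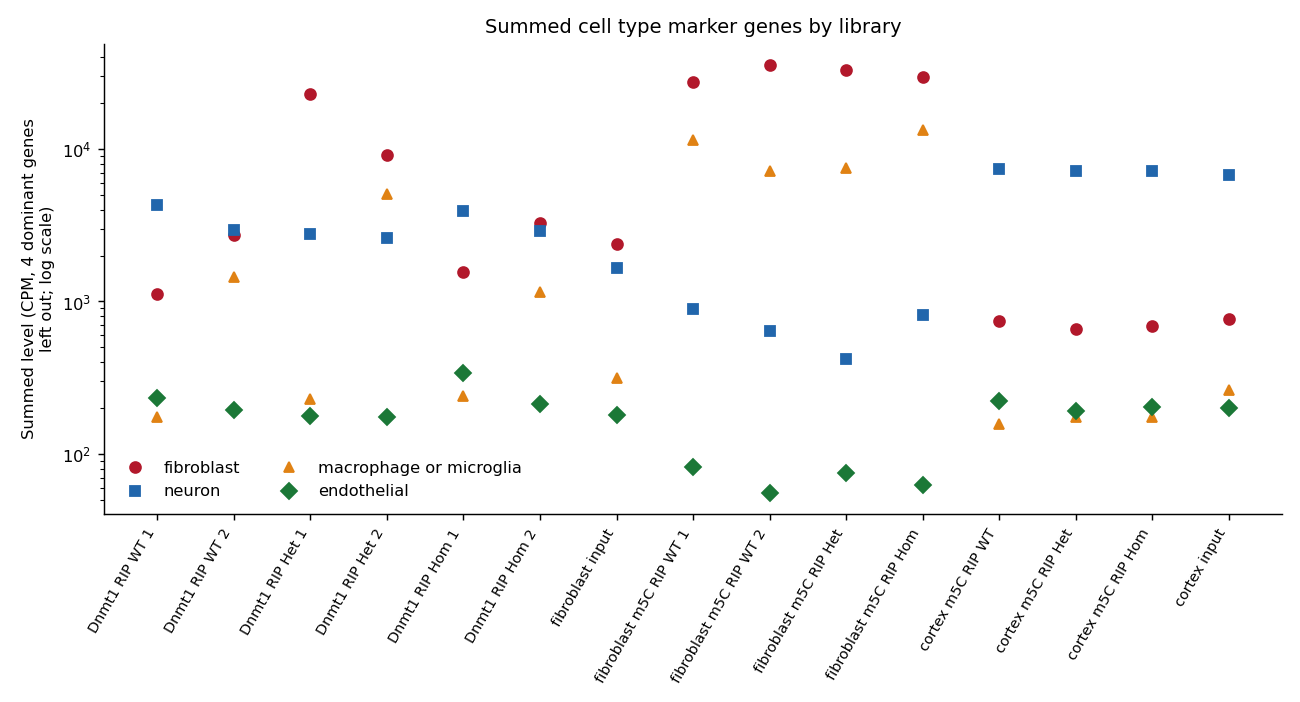
Summed levels (CPM without 4 dominant genes, log axis) of fibroblast, neuron, macrophage or microglia and endothelial marker genes in each of the 15 libraries; each point is 1 library. Neuron markers lie at 2625 to 4275 CPM in the Dnmt1 RIP, above the 420 to 892 CPM of fibroblast m5C RIP.

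The genes lie on separate chromosomes except for Hif1a and Egln3 (mm10, GENCODE M21). Vhl is at chr6:113623959-113631633, Hif1a at chr12:73901375-73947530, Epas1 at chr17:86753700-86833410, Arnt at chr3:95434388-95497240 and Hif1an at chr19:44562850-44576274, all on the plus strand. Egln1 is at chr8:124908587-124949324, Egln2 at chr7:27158658-27166802 and Egln3 at chr12:54178981-54203860, all on the minus strand. All 8 are protein coding. Vhl shares no exon base with another gene, and its nearest coding neighbour, Irak2, is 6834 bases away. Hif1a shares 330 exon bases, 5.60% of its exon length, with the antisense gene Gm15283. Use of strand in counting is not given in these sources, so reads of the shared stretch cannot be assigned; Gm15283 itself had 59 counts over all libraries. Egln2 shares 11 exon bases with Cyp2t4.

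The promoters of these genes are shown because HIF is known to act back on some of its own regulators through the core ACGTG. Windows of 250 bases before to 50 after each RefSeq start (GRCm38.p6, the same assembly as mm10) were found for 7 of the 8 genes, with 2 windows for Egln2. The core ACGTG was searched on both strands, where it reads CACGT on the other strand, so the palindrome CACGTG matches on both. It was present in 4 of the 8 windows, those of Hif1a, Egln1, Egln2 (1 of its 2) and Egln3. Of the 32851 promoters of the same length that were searched, 19.6% held it. The core itself contains a CpG, and the 8 windows had a median of 22 CpG against 7 over all promoters. The 19.6% is therefore not a matched background, and no enrichment is read from it. The matches are printed on the gene's strand with 12 bases on each side and the core in capitals, with positions counted from the start base as 0, and 1 line for each palindrome.
Hif1a, chr12:73907721-73907749, plus strand, match at -134: acacagacaagcACGTGagcggggcagct
Hif1a, chr12:73907785-73907813, plus strand, match at -70: tggctgagagcaACGTGggctggggtggg
Egln1, chr8:124949306-124949334, minus strand, match at -68: gggccgtggtgtACGTGcagcgcgcgcgg
Egln2, chr7:27166834-27166862, minus strand, match at -48: agcctcctgtcaACGTGcggttcgcgcac
Egln2, chr7:27166789-27166817, minus strand, match at -3: cgggccgctgtcACGTGcccagcgggcga
Egln3, chr12:54204087-54204115, minus strand, match at -229: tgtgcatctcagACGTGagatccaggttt
The Hif1a start in RefSeq lies inside the longer GENCODE gene. A match is a run of letters and not a bound site.

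No core was found in the windows of Vhl, Arnt or Hif1an. The Vhl promoter is printed because Vhl is the gene that stood out in the Dnmt1 RIP and Dnmt1 acts on CpG dinucleotides in DNA. The stretch from 250 to 51 bases before the RefSeq start holds 12 CpG, in capitals, most of them in its last part. The whole window of 300 bases holds 25, against a median of 7 over all promoters. The median of the 8 pathway windows is 22, and the Hif1a window also holds 25, so this count does not set Vhl apart from them.
Vhl, chr6:113623744-113623943, plus strand: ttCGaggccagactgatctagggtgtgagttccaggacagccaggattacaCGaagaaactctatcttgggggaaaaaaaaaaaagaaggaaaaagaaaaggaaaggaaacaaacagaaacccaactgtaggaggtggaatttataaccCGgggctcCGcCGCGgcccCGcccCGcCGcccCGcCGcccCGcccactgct
No DNA methylation was measured in these libraries.

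Vhl, the substrate-binding subunit of the ligase, was highest in both WT Dnmt1 RIP libraries and lowest in both Hom libraries. It had 22 and 23 counts in the WT libraries, 14 and 28 counts in the Het libraries and 6 and 23 counts in the Hom libraries. The levels were 114 and 66.5 CPM in WT, 23.4 and 36.9 CPM in Het and 15.9 and 19.3 CPM in Hom. The raw counts overlap while the levels of WT lie above those of the other genotypes, since the WT libraries were the shallowest. Against all gene counts the levels were 101 and 49.7 CPM in WT, 17.2 and 34.8 CPM in Het and 5.83 and 16.9 CPM in Hom, in the same order of genotypes.

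The fitted log2 fold change of Vhl was -2.27 ± 0.55 (SE) for Hom against WT, -1.43 ± 0.53 for Het against WT and -0.84 ± 0.54 for Hom against Het. These 3 values share libraries. Among the 7 pathway genes that passed the filter on low counts, Vhl was the only one whose Hom libraries lay below its WT libraries without overlap, and 14.3% of 13589 genes did so. Hif1an lay above without overlap, as 15.8% of genes did. Nothing is read from these counts, as Vhl was chosen on this comparison. Total counts alone moved the median of all genes by -0.39 here and gave Vhl -2.68. Leaving out 1 library at a time gave -2.51 to -1.94 for Hom against WT. With the 4 dominant genes left out of the fit it was -2.26.

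The share of Vhl among the counts of the 8 genes uses no library total. It was 17.7% (95% exact binomial interval 11.5 to 25.6) and 13.5% (8.72 to 19.5) in the WT Dnmt1 RIP, and 3.99 and 8.09% in Het. In Hom it was 3.87% (1.43 to 8.23) and 4.26% (2.72 to 6.32). Fibroblast m5C RIP gave 8.82 and 4.54% (WT), 6.50% (Het) and 8.78% (Hom), cortex m5C RIP 4.81, 6.92 and 6.95%, and cortex input 4.91%. The 2 WT Dnmt1 RIP libraries were the high ones, and Het and Hom lay in or just below the range of the m5C RIP libraries. In the Dnmt1 RIP this share comes from the same counts by which Vhl was chosen, so it restates that choice and adds no support to it. Intervals cover counting error only.

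**Figure D2:**
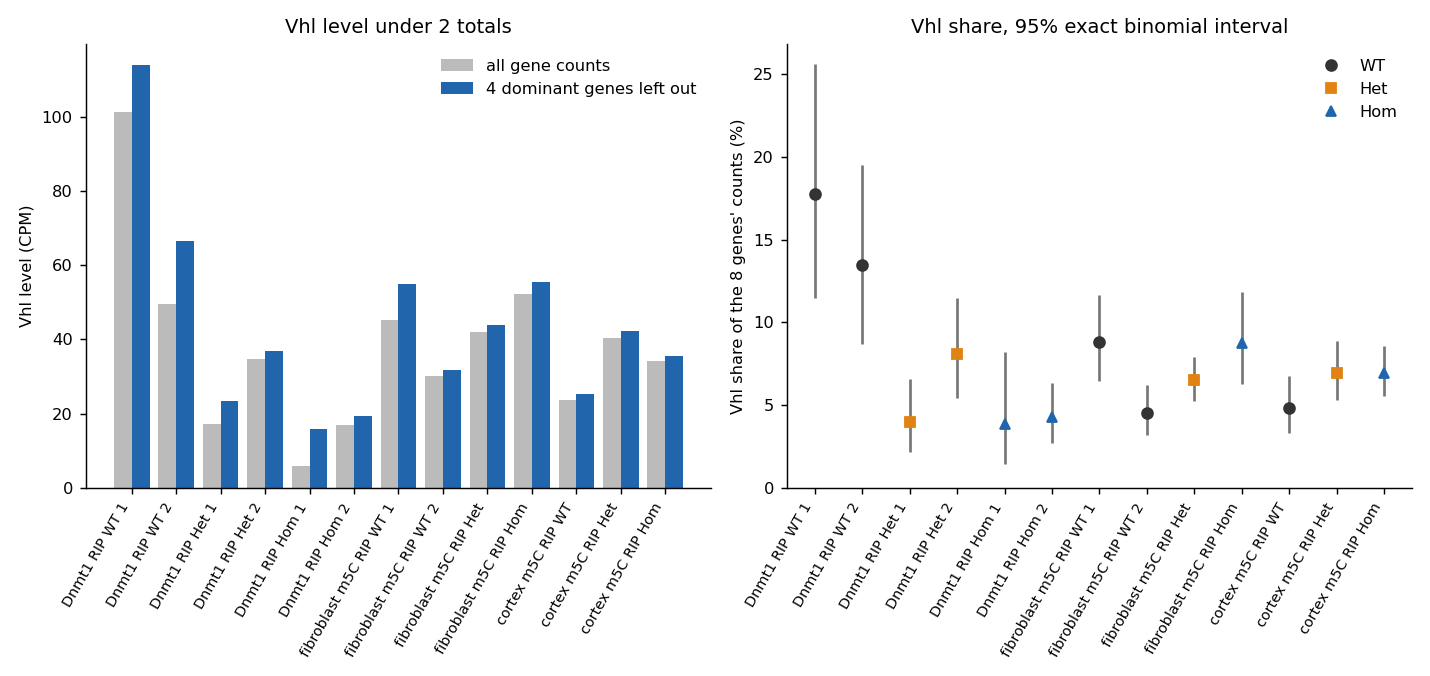
Left, Vhl level (CPM) in each RIP library against all gene counts (grey) and without 4 dominant genes (blue). Right, Vhl share of the counts of the 8 pathway genes (%), 1 point per library with its 95% exact binomial interval; the WT Dnmt1 RIP libraries, at 17.7 and 13.5%, are the highest.

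The m5C RIP libraries share none with the comparison in which Vhl stood out, so genotype could be tested there. The Hom fibroblast table, at or below that of WT library 1 in every gene, limits the test of Hom. Vhl was at 54.8 and 31.8 CPM in WT fibroblasts, 43.8 CPM in Het and 55.4 CPM in Hom. In cortex it was at 25.2 CPM in WT, 42.3 CPM in Het and 35.6 CPM in Hom. The fibroblast groups overlapped, and in cortex both mutants were above the single WT library. Over both tissues, with tissue as a covariate, the log2 fold change was 0.33 ± 0.29 for Het against WT (95% interval -0.29 to 0.96, adjusted p = 0.989) and 0.39 ± 0.30 for Hom against WT (-0.25 to 1.04, adjusted p = 1), by edgeR's quasi-likelihood test with Benjamini-Hochberg adjustment over all genes. The Dnmt1 RIP estimates, -1.43 for Het and -2.27 for Hom, lie outside these intervals. Vhl was chosen on those libraries, so their size can be overstated, and the m5C RIP fit includes cortex. No conclusion is drawn from comparing the sizes. Without WT library 1 the estimates were 0.55 and 0.61, and neither passed. Without the fibroblast Hom library, which leaves the cortex Hom library alone in its group, Hom against WT was 0.31. None of the 8 genes was called in either comparison, where 0 of 14193 genes (0%) were called by edgeR at an adjusted p of 0.05. At an unadjusted p under 0.05 there were 564 genes (3.97%) for Het and 122 (0.860%) for Hom, and none of the 8. DESeq2 called none of those of the 8 to which it gave an adjusted p. The median log2 fold change of the 8 was 0.16 for Het and -0.08 for Hom, against -0.03 and -0.0011 over all genes. Estimates of the other 7 ran from -0.14 (Egln2) to 0.93 (Egln3) for Het and from -0.40 (Egln3) to 0.09 (Epas1) for Hom. In the fibroblast libraries the Het and Hom tables have another layout than the WT tables, so table layout and genotype cannot be told apart there.

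Hif1a and Epas1, the 2 oxygen-regulated alpha subunits, had opposite tissue patterns. Hif1a was at 212 and 343 CPM (WT), 294 CPM (Het) and 227 CPM (Hom) in fibroblast m5C RIP, and at 41.5, 62.6 and 42.2 CPM in cortex m5C RIP (WT, Het and Hom). Every fibroblast library was above every cortex library. Hif1a was lower in cortex by a log2 fold change of -2.60 ± 0.24 (95% interval -3.10 to -2.09, adjusted p = 2.14e-07, edgeR). Epas1, which is best known from endothelium and other specialised cells, was at 29.9 and 30.1 CPM (WT), 31.8 CPM (Het) and 29.2 CPM (Hom) in fibroblast m5C RIP. It was at 153, 184 and 170 CPM in cortex m5C RIP (WT, Het and Hom), and again the groups did not overlap. Its log2 fold change was 2.34 ± 0.19 (1.93 to 2.74, adjusted p = 7.14e-08, edgeR).

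These were the 2 of 8 pathway genes called between the tissues, 1 in each direction, where 63.9% of 14193 genes were called (30.9% higher and 33.0% lower in cortex). The share of the pathway called is thus below the background. Groups that did not overlap were found for 32.9% of genes in the higher and 34.0% in the lower direction. Total counts alone moved the median of all genes by 0.14. Without WT library 1 the estimates were -2.69 and 2.32. Within the 5 libraries whose tables share a layout they were -2.46 and 2.40, and both genes were still called. The 7 endothelial markers summed to 192 to 222 CPM in cortex and 55.8 to 82.2 CPM in fibroblast m5C RIP, in the direction of Epas1. Flt1 is among these 7 markers and also on the target list given below. Neuron markers (7161 to 7359 against 420 to 892 CPM), astrocyte markers (3945 to 4554 against 414 to 526 CPM) and oligodendrocyte markers (3976 to 4381 against 261 to 462 CPM) also moved with Epas1. Fibroblast markers (659 to 745 against 27723 to 35409 CPM) and macrophage or microglia markers (158 to 176 against 7225 to 13372 CPM) moved with Hif1a. The part of these cells in either result was not tested. Cortex input, the other cortex library, had Epas1 at 219 CPM, above every cortex m5C RIP library. Its Hif1a level, 46.8 CPM, was within the range of cortex m5C RIP.

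Arnt, the shared partner of the alpha subunits, was at 42.3 to 73.7 CPM in fibroblast and 56.1 to 68.3 CPM in cortex m5C RIP. Its log2 fold change between the tissues was 0.03 ± 0.23 (95% interval -0.46 to 0.51), with a sign that turned under RLE scaling (-0.0085). Hif1an, the asparaginyl hydroxylase that keeps HIF from its coactivators, had 48.1 to 53.6 CPM in fibroblast and 52.2 to 73.6 CPM in cortex (0.11 ± 0.21, -0.34 to 0.56). Among the prolyl hydroxylases, Egln1, regarded as the main oxygen sensor, had 79.0 to 114 CPM in fibroblast and 73.9 to 92.5 CPM in cortex. Its estimate was -0.27 ± 0.20. Egln2 had 91.0 to 106 CPM in fibroblast and 73.9 to 92.7 CPM in cortex, with an estimate of -0.35 ± 0.18 (adjusted p = 0.105). Egln3 had only 3 to 18 counts per m5C RIP library, or 2.44 to 10.2 CPM, and its interval ran from -2.10 to 0.84. Vhl stood at -0.59 ± 0.25 with an adjusted p of 0.0509, just outside the threshold, and passed in 4 of 13 alternatives. Of these 6 genes only Egln2 had groups that did not overlap in the fit, and none was called. Without WT library 1 the estimates were -0.47 for Vhl, -0.0051 for Arnt, 0.12 for Hif1an, -0.24 for Egln1, -0.39 for Egln2 and -0.74 for Egln3, and none was called.

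**Figure D3:**
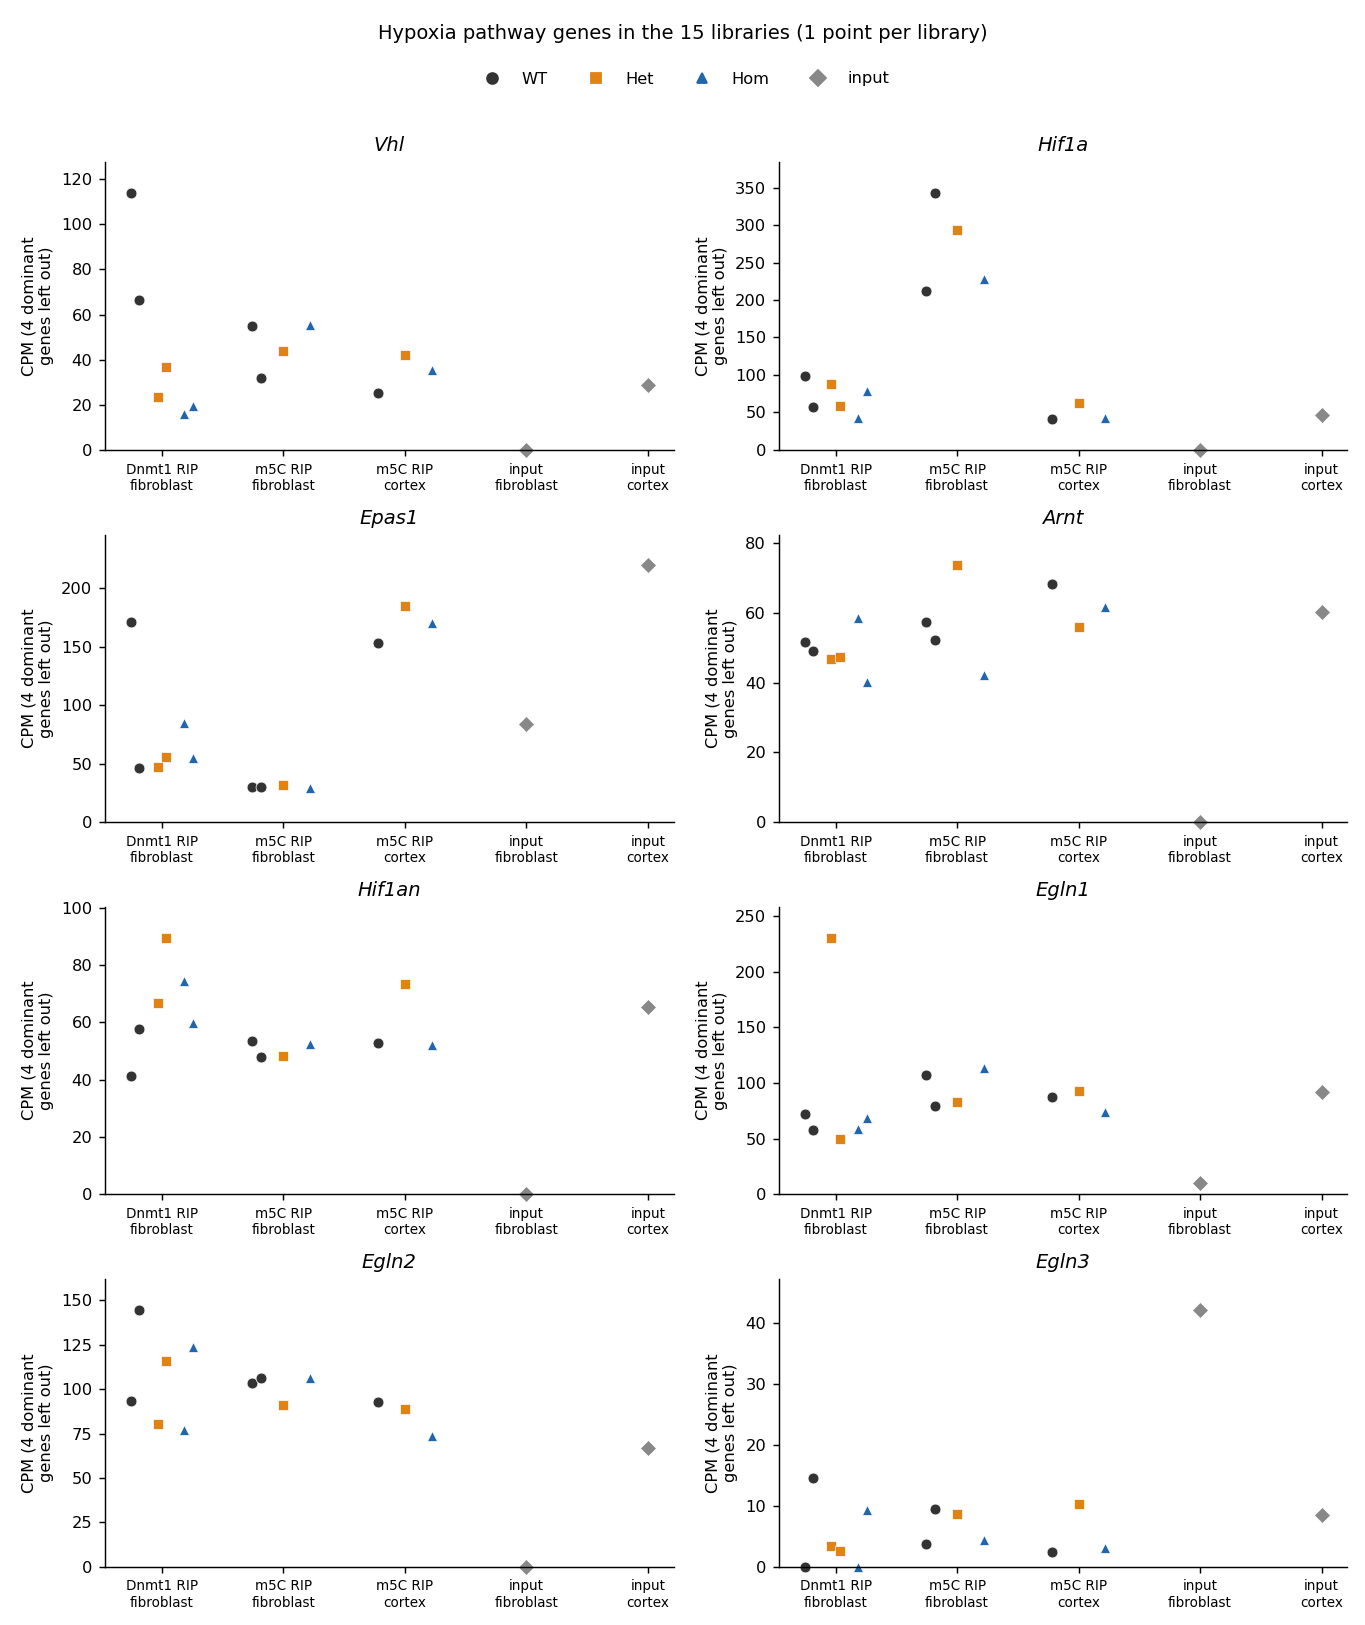
Level of each of the 8 genes (CPM without 4 dominant genes) in the Dnmt1 RIP, m5C RIP and input libraries; each point is 1 library, with shape and colour giving the genotype. Hif1a is high in fibroblast m5C RIP (212 to 343 CPM) and Epas1 in cortex m5C RIP (153 to 184 CPM).

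Set against exon length, as levels of different genes must be, Hif1a had the highest median of the 8 genes in fibroblast m5C RIP, 44.2 CPM per kilobase. Hif1a (35.9 to 58.1) and Egln2 (32.5 to 38.0 CPM per kilobase) overlapped there. In cortex m5C RIP the median of Hif1a was 7.15 CPM per kilobase, and it ranked 7 of the 8. Vhl ranked 4 in fibroblast and in cortex m5C RIP, at medians of 16.5 and 11.9 CPM per kilobase. In the Dnmt1 RIP it had 38.0 and 22.2 CPM per kilobase in WT, 7.80 and 12.3 CPM per kilobase in Het and 5.32 and 6.45 CPM per kilobase in Hom, so it has no single place in the order there. Several neighbours in this order do not differ beyond their spread: in cortex, Hif1a (7.03 to 10.6), Arnt (7.01 to 8.53), Hif1an (7.89 to 11.1) and Vhl (8.41 to 14.1 CPM per kilobase) overlapped.

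In the Dnmt1 RIP the balance of the alpha subunits lay between the m5C RIP libraries of both tissues. Hif1a was at 98.3 and 57.9 CPM in WT, 88.5 and 58.0 CPM in Het and 42.5 and 78.1 CPM in Hom. All 6 lay below the 4 fibroblast m5C RIP libraries, and the genotypes overlapped. Epas1 was at 171 and 46.3 CPM in WT, 46.8 and 55.3 CPM in Het and 85.1 and 54.6 CPM in Hom. WT library 1 stood above the rest, and all 6 were above the fibroblast m5C RIP libraries at 29.2 to 31.8 CPM, though on the TMM scale of the fit the groups overlapped.

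The share of Hif1a in the sum of Hif1a and Epas1 counts needs no library total. In the Dnmt1 RIP it was 36.5 and 55.6% (WT), 65.4 and 51.2% (Het) and 33.3 and 58.9% (Hom), a mean of 50.1% ± 12.7 (SD, n = 6). In fibroblast m5C RIP it was 87.6 and 91.9% (WT), 90.2% (Het) and 88.6% (Hom), a mean of 89.6% ± 1.89 (SD, n = 4). In cortex m5C RIP it was 21.3, 25.4 and 19.8%, a mean of 22.2% ± 2.86 (SD, n = 3). The 3 sets of libraries did not overlap. By exact two-sided permutation tests over libraries, p was 0.0048 for Dnmt1 RIP against fibroblast m5C RIP, 0.0286 for cortex against fibroblast m5C RIP and 0.0238 for Dnmt1 RIP against cortex m5C RIP. Adjusted over the 3 comparisons these are 0.0144, 0.0286 and 0.0286, and the first 2 are the smallest p their designs allow. Without WT library 1 of the m5C RIP the first difference, of -39.5 points, was -40.1 points (p = 0.0119, exact permutation test). The share was chosen after the values were seen, which the adjustment does not cover, so these p-values only describe the separation. Cortex input had 17.6% (95% exact binomial interval 15.5 to 19.8), and fibroblast input 0 of 8 counts, which allows up to 36.9%. The neuron, astrocyte and oligodendrocyte markers also lay between both tissues in the Dnmt1 RIP: 1440 to 2277 CPM for the 6 astrocyte markers, against 414 to 526 CPM in fibroblast and 3945 to 4554 CPM in cortex m5C RIP, and 1337 to 2345 CPM for the 6 oligodendrocyte markers, against 261 to 462 and 3976 to 4381 CPM. Fibroblast input also lay between both tissues, at 1661 CPM for neuron, 1567 CPM for astrocyte and 1188 CPM for oligodendrocyte markers. The part of these markers in the share was not tested.

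**Figure D4:**
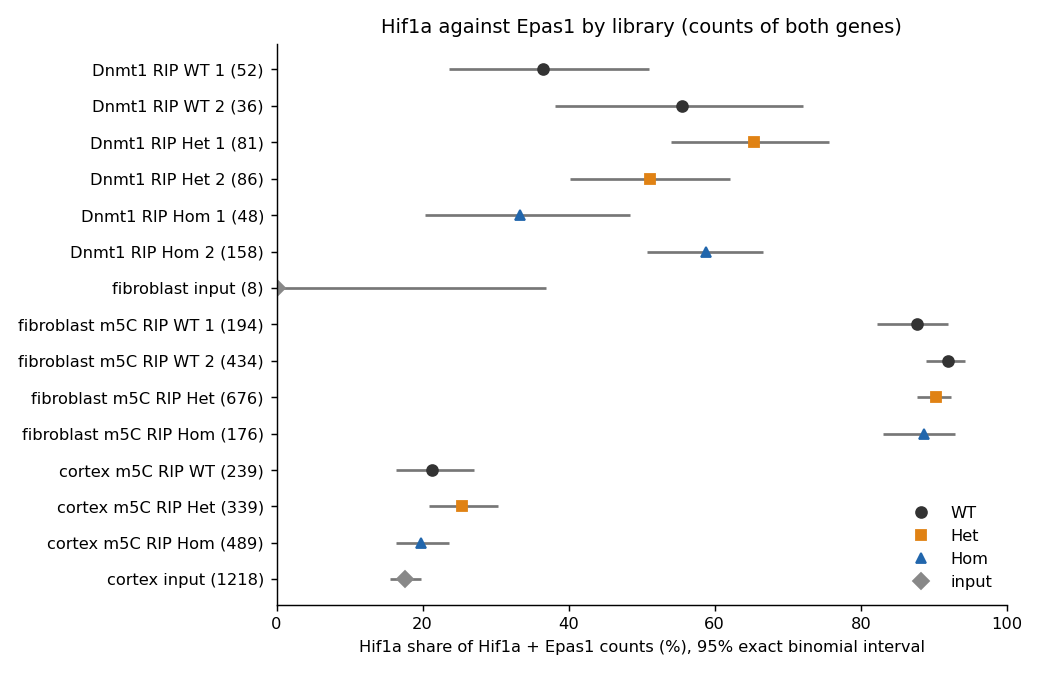
Hif1a share (%) of the Hif1a plus Epas1 counts in each library, with the 95% exact binomial interval and the number of counts in brackets. Fibroblast m5C RIP libraries lie at 87.6 to 91.9%, Dnmt1 RIP libraries at 33.3 to 65.4% and cortex m5C RIP libraries at 19.8 to 25.4%.

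Between the antibodies in fibroblasts, with genotype as a covariate, Hif1a was lower in the Dnmt1 RIP by a log2 fold change of -2.55 ± 0.30 (95% interval -3.18 to -1.93, adjusted p = 2.43e-05, edgeR). Fixation and messenger RNA selection differ with the antibody and cannot be told apart from it. Arnt, at 40.3 to 58.5 CPM in the Dnmt1 RIP, was lower by -0.85 ± 0.25 (adjusted p = 0.0128), but the call was lost with total counts alone (adjusted p = 0.344) and in 5 other alternatives. These were 2 of the 7 pathway genes tested, both lower, where 40.2% of 17124 genes were called (17.5% higher and 22.6% lower) and 19.1% were lower without overlap. RLE factors and total counts alone moved the median log2 fold change of all genes up by 0.13 and 0.36, so changes are relative to the scaling. With total counts alone, 3830 genes were called higher and 2096 lower, against 3004 and 3878 here.

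Epas1 had an estimate of 0.61 ± 0.32 (95% interval -0.07 to 1.30, adjusted p = 0.136). Egln1 had -0.88 ± 0.39 (adjusted p = 0.081), and it passed in 3 alternatives, at -1.33 (adjusted p = 0.00046) without Het Dnmt1 RIP library 1. Egln2 had -0.53 ± 0.26 and Hif1an -0.31 ± 0.26, the latter turning to 0.02 with total counts alone. Egln3 had 0 to 11 counts in the Dnmt1 RIP and was not tested. Vhl had -0.82 ± 0.38 over the 3 genotypes (adjusted p = 0.0904). In the WT libraries alone it was 0.67 ± 0.45, the opposite direction, and neither value passed. In the negative direction, 2 other alternatives passed. All of these use the Dnmt1 RIP libraries in which Vhl was chosen for a difference between WT and Hom. Neither the values nor the turn of sign is therefore independent of that choice. Without WT library 1 of the m5C RIP, Hif1a (-2.66) and Arnt (-0.85) were still called and no other pathway gene was. Hif1a kept its direction and its call within the 8 libraries of 1 table layout (-2.41, adjusted p = 0.0137).

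The other pathway genes differed between single Dnmt1 RIP libraries, and no difference by genotype is read from them. Egln1 was at 72.5 and 57.9 CPM in WT, 231 and 50.1 CPM in Het and 58.5 and 68.9 CPM in Hom. Het library 1, with 138 counts, stood alone above the other 5 libraries. That library also had the highest sum of fibroblast markers in the Dnmt1 RIP, 23128 CPM, against 9143 CPM in Het library 2. Fibroblast m5C RIP had higher sums, 27723 to 35409 CPM, with Egln1 at 79.0 to 114 CPM. The part of those cells in the Egln1 value was not tested. The estimate for Het against WT was 1.28 ± 0.68 (adjusted p = 0.814), and -0.29 without Het library 1. For Epas1 the same comparison gave -0.89 ± 0.57 (adjusted p = 0.836), and 0.20 without WT library 1.

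Hif1an was at 41.4 and 57.9 CPM in WT, 66.8 and 89.6 CPM in Het and 74.4 and 59.7 CPM in Hom. WT was the lower group without overlap. Het against WT was 0.72 ± 0.45 (adjusted p = 0.836), and 18.2% of 13589 genes were higher in Het without overlap. Egln2 was at 93.2 and 145 CPM in WT, 80.2 and 116 CPM in Het and 77.1 and 124 CPM in Hom, with overlap throughout. Arnt was at 51.8 and 49.2 CPM in WT, 46.8 and 47.4 CPM in Het and 58.5 and 40.3 CPM in Hom, where WT lay just above Het and Hom spread around both; on the TMM scale of the fit all 3 overlapped. Het against WT gave -0.21 ± 0.45 for Egln2 and 0.01 ± 0.48 for Arnt. In Het against WT and Hom against Het of the Dnmt1 RIP, none of the 6 tested genes other than Vhl was called, where edgeR called 0% of all genes; it also called 0% for Hom against WT. At an unadjusted p under 0.05 there were 309 genes (2.27%) for Hom against WT, 868 (6.39%) for Het against WT and 629 (4.63%) for Hom against Het. DESeq2 called 26 genes for Het against WT and 15 for Hom against Het, none of them a pathway gene, but it gave no adjusted p for Egln1, Epas1 and Hif1an in Het against WT. None of the 6 genes reached an unadjusted p under 0.05 in Het against WT or in Hom against Het.

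The partner list held 16 genes of the ligase and of HIF regulation, all tested between the tissues. In cortex m5C RIP 5 were higher and 6 lower, 11 of 16, where 63.9% of all genes were called, so the count is near the background; without WT library 1 it was 13. The higher ones were Arnt2 (2.80 ± 0.20), a neural paralog of Arnt, P4htm (2.18 ± 0.28), a transmembrane prolyl hydroxylase, the coactivators Ep300 (1.56 ± 0.18) and Crebbp (1.16 ± 0.18), and Hif3a (1.40 ± 0.35), another alpha subunit. The lower ones included the other parts of the Vhl ligase, Elob (-1.86 ± 0.21), Eloc (-1.01 ± 0.19) and Rbx1 (-1.44 ± 0.19), and Nedd8 (-1.32 ± 0.20), which activates the cullin. Rack1 (-3.37 ± 0.22), known to promote loss of Hif1a independent of oxygen, and Cited2 (-1.77 ± 0.21), an inhibitor that competes for the coactivators, were also lower, while the cullin Cul2 was not called. The list's median log2 fold change was -0.48, against -0.06 over all genes. Adjusted p-values of the 11 called genes ran from 7.89e-09 to 0.00309 (edgeR).

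Between the antibodies the partner list gave 3 higher and 6 lower of 16 in the Dnmt1 RIP, where 17.5% of all genes were higher and 22.6% lower, with a median of -0.58 against 0.22 over all genes. The count was again 9 without WT library 1. Hif3a (1.51 ± 0.37), Arnt2 (1.33 ± 0.27) and Ep300 (1.00 ± 0.27) were higher. Rack1 (-2.27 ± 0.33), Nedd8 (-1.89 ± 0.32), Rbx1 (-1.53 ± 0.30), Hsp90ab1 (-1.37 ± 0.35), Eloc (-1.36 ± 0.25) and Elob (-1.28 ± 0.31) were lower. Hsp90ab1 is a chaperone that stabilises Hif1a. Both comparisons share the 4 fibroblast m5C RIP libraries, so they are not independent.

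The target list held 44 genes that HIF is known to switch on. Of the 40 tested between the tissues, 6 were higher and 17 lower in cortex, with a median of -0.32 against -0.06 over all genes. These 23 of 40 are a smaller share than the 63.9% of all genes called (30.9% higher and 33.0% lower), and without WT library 1 the count was 24. The 6 matrix enzymes, which hydroxylate or cross-link collagen, were all lower, from -2.15 ± 0.19 for P4ha1 to -10.73 ± 0.47 for Lox, the collagen cross-linking oxidase. Among the vessel, iron and blood genes, Hmox1 (-7.68 ± 0.39) and Adm (-7.03 ± 0.44) were lower and Flt1 (1.85 ± 0.23), a receptor for Vegfa, was higher. Lox averaged 1.01 TMM-scaled CPM in cortex and 1791 in fibroblast, so the exact size of such a fold rests on few cortex counts. Of the 17 glycolysis genes 5 were lower, with Slc16a3, a lactate exporter, at -5.22 ± 0.35, and 2 were higher, Pfkp (2.72 ± 0.18) and Hk1 (1.01 ± 0.17). Of the 11 mitochondria, growth and stress genes tested, 3 were higher, Car12 (1.75 ± 0.47), Ndrg1 (1.16 ± 0.21) and Mxi1 (1.09 ± 0.23), and 3 were lower. Fibroblast and macrophage marker sums move in the same direction as the lower genes, and their part was not tested.

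In the Dnmt1 RIP, 2 of 41 targets tested were higher than in fibroblast m5C RIP, Pfkp (1.24 ± 0.27) and Flt1 (1.10 ± 0.34), and 25 were lower, with a median of -1.20 against 0.22 over all genes. Of all genes, 17.5% were higher and 22.6% lower. Without WT library 1 of the m5C RIP 27 targets were called, as with it. The 6 lower genes with the smallest p were Ldha (-3.02 ± 0.34), Adm (-4.45 ± 0.51), Plod1 (-2.63 ± 0.31), P4ha2 (-2.40 ± 0.28), Pgk1 (-2.39 ± 0.28) and P4ha1 (-2.91 ± 0.35). Ldha makes lactate and Pgk1 is a glycolytic kinase. In the WT libraries alone 17 targets were called, against 27 over all genotypes. All 6 matrix enzymes and 11 of 17 glycolysis genes were among the lower ones. Fibroblast markers were lower in each Dnmt1 RIP library than in each fibroblast m5C RIP library, and their part was not tested.

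**Figure D5:**
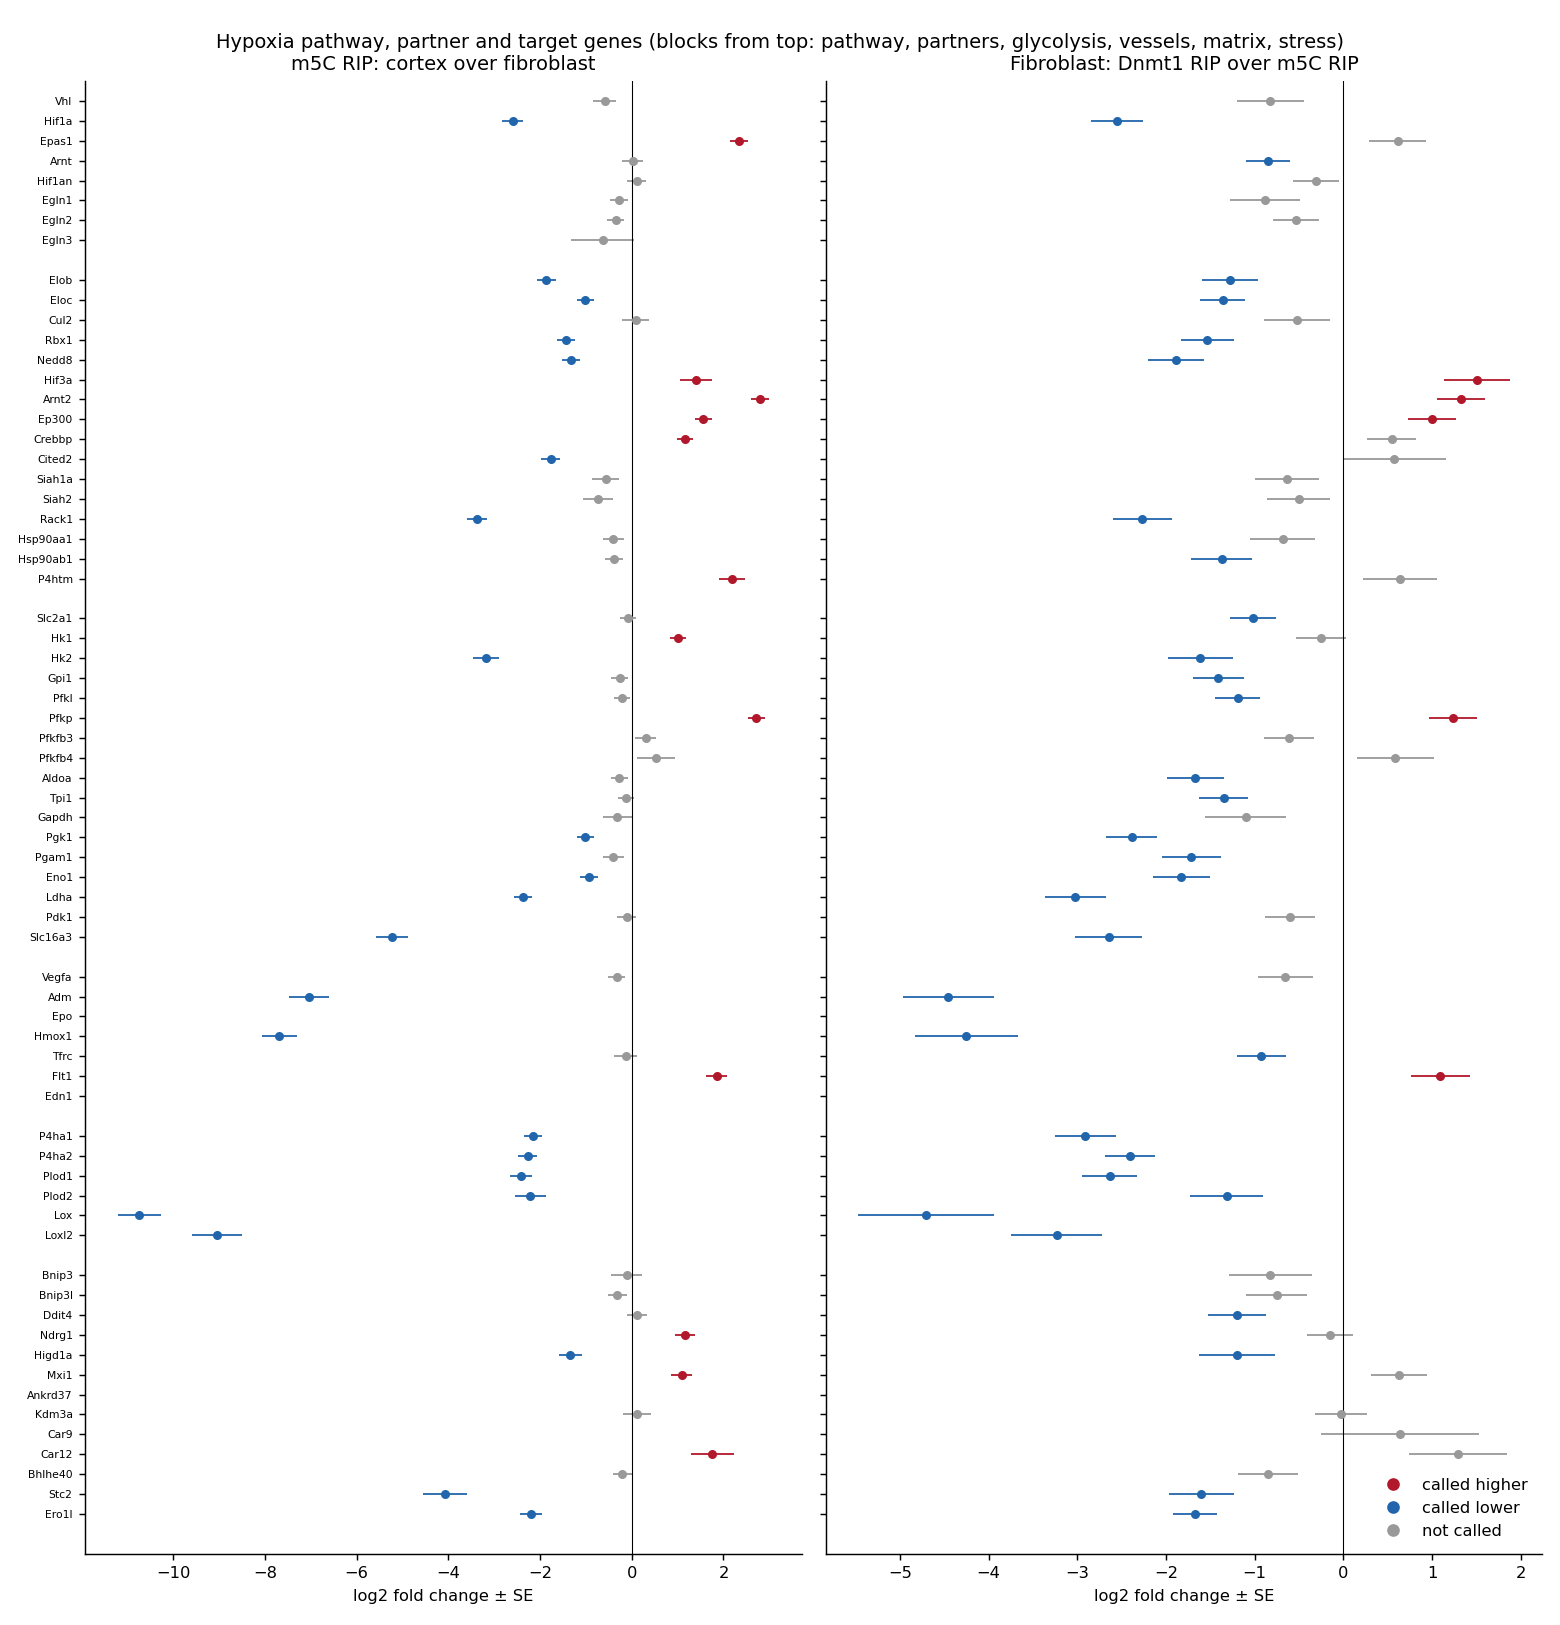
Log2 fold change with its SE for the 8 pathway genes, 16 partners and the targets reported here, for cortex over fibroblast m5C RIP (left) and Dnmt1 RIP over m5C RIP in fibroblasts (right); red is called higher, blue called lower, grey not called, and a missing point was not tested. Matrix enzymes are lower in both panels, down to -10.73 for Lox in cortex.

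By genotype no partner or target was called, in the Dnmt1 RIP or in the m5C RIP (edgeR, smallest adjusted p 0.732). In the Dnmt1 RIP of Het against WT, all 6 matrix enzymes had positive estimates, where 51.6% of all genes had. Their median was 1.37 against 0.03 over all genes. The targets with the smallest p there were Lox (3.53 ± 1.16), Plod2 (2.42 ± 0.89), Hk2 (1.46 ± 0.54) and Slc16a3 (2.24 ± 0.91), the first 3 at adjusted p = 0.732. The fibroblast markers summed to 23128 and 9143 CPM in Het, 1123 and 2740 CPM in WT and 1560 and 3254 CPM in Hom, and their part was not tested. For Hom against WT the 40 targets tested had a median of -0.04 against 0.01 over all genes.

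Fibroblast input gives a weak baseline. Vhl, Hif1a, Arnt, Hif1an and Egln2 had 0 counts there, which allows up to 3 counts or 31.5 CPM, Egln1 had 1, Egln3 had 4 and Epas1 had 8. Egln2 was the 1 pathway gene of 8 called against input in the Dnmt1 RIP (adjusted p = 0.0409, edgeR), at least 3.02-fold higher against 3 counts in the input library, where 4.99% of 16558 genes were called (3.31% higher). The call was lost under DESeq2 and on leaving out any of 5 of the 6 Dnmt1 RIP libraries, all but Het library 1. Over all genes of that comparison the median log2 fold change was 5.39, and 82.8% of estimates were positive. A level above this sparse input is thus usual, and the bounds are not read as enrichment. The bounds for the mean of the 6 libraries were 2.02 for Hif1a, 1.87 for Hif1an and 1.39 for Arnt. For Vhl the bound was 1.27, on a mean raised by the WT libraries in which it was chosen, and its lowest library was at 10.2 TMM-scaled CPM, below the 23.8 that 3 input counts stand for. In m5C RIP against both inputs, edgeR called 0 of 8 pathway genes, where 0.0552% of 14501 genes were called and 787 (5.43%) had an unadjusted p under 0.05, none of them among the 8. DESeq2 called none of those to which it gave an adjusted p. Without cortex input, which leaves fibroblast input alone, 6 of the 8 were called, and so were 5816 of 14286 genes.

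The genes whose levels ran most like those of Vhl over the 15 libraries were Elof1 (Pearson r = 0.97), Mrpl41 (0.962), Ppp1ca (0.954), Fancg (0.954) and Ndufa5 (0.944). Without fibroblast input, where all 5 and Vhl had 0 counts, these values fell to 0.811 to 0.898. For Hif1a they were Bud31, P4ha2 and Pigs (0.978 to 0.98), and for Epas1 Tcaf1, Nsf and Gad1 (0.962 to 0.969). These describe 15 libraries that differ in tissue, antibody and depth, and 724 of 11566 genes had an r over 0.9 with Hif1a, 158 with Epas1 and 128 with Vhl.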

How the data were processed

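Per the labels' protocols, tail fibroblast lines were made from littermates of 1 sex, fixed cells were used for a Dnmt1 RIP and 1 ug of messenger RNA for an m5C RIP. Both ribosomal RNA depletion and polyA enrichment are named, with no word on which library had which. Per the submitters' processing notes, the authors used Trim Galore 0.4.1, HISAT2, featureCounts and mm10. The deposited values are raw counts per gene symbol; other versions, the annotation and the strand setting were not given in these sources. In 6 tables, 5 entries that name no gene were kept out, and genes held 3.79 to 10.1% of all counts there.

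Counts were tested with edgeR 4.0.16 under R 4.3.3 (low counts filtered by filterByExpr with a minimum count of 10 and a minimum total of 15; TMM; glmQLFit and glmQLFTest; Benjamini-Hochberg over all genes tested, threshold 0.05). Called means past this threshold. The 6 Dnmt1 RIP libraries, the 7 m5C RIP libraries (genotype and tissue), the 10 fibroblast RIP libraries (genotype and antibody) and both input comparisons were separate fits. SE is the log2 fold change over the square root of F. Groups of 1 library are assumed to vary like the others. Alternatives were RLE factors, total counts alone, no filter, DESeq2 1.42.0, removal of 4 dominant genes, leaving out each library, subsets of libraries and a replicate block. Tables of one layout, likeness without fibroblast input and the shares of counts were added after seeing the data.

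The members and lists were chosen with earlier results of these data known. Named were all members, and from each list the called genes, at most 6 a direction by smallest p, or else the 4 with the smallest p (1 target that the rule names is not reported here); likeness used log2 CPM with a prior count of 2 among genes with a mean of at least 10 CPM. Genes placed by a group's extreme or count, such as Cul2, were added after their values were seen. Promoters are from RefSeq (GRCm38.p6), without chromosome 18. Python 3.11.15 ran SciPy 1.17.1 for exact tests and intervals, numpy 2.4.6 and pandas 2.3.3 for tables, and matplotlib 3.10.9 for plots.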

Additional observations from a re-analysis of the deposited data

Results flagged for a closer look

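In m5C RIP, 3 ratios of a mutant to WT moved one way in fibroblasts and the other way in cortex, and none of these differences was tested, since cortex has 1 library for each genotype. Hom over WT for Epas1 was -0.04 against either WT fibroblast library and 0.16 in cortex on the log2 scale, a gap of -0.1964 (fibroblast minus cortex). Het over WT for Arnt was 0.36 and 0.49 in fibroblasts and -0.28 in cortex, a gap of 0.7107. Hom over WT for Egln1 was 0.09 and 0.53 in fibroblasts and -0.25 in cortex, a gap of 0.5549. The Hom fibroblast library is the one whose table lies at or below that of WT library 1 in every gene.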

How the results depend on the processing

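Hif1a and Epas1 between the tissues, and Hif1a between the antibodies, kept their direction and call in every alternative run (adjusted p up to 1.18e-05, 6.36e-06 and 0.0137). Calls among all genes, 0 in each genotype comparison, became 2 (total counts alone) and 13 (no filter) for Hom against WT in the Dnmt1 RIP, 192 (no filter), 26 (DESeq2) and 0 to 38 (leaving out a library) for Het against WT, and 113, 15 and 0 to 35 for Hom against Het. In m5C RIP they became 10 (no filter), 4 (fibroblast libraries only) and 0 to 10 (leaving out a library) for Het against WT, and 10, 1 and 0 to 17 for Hom against WT. Between the antibodies, the 6882 calls became 3394 in WT libraries only, 3056 with the replicate block there and 2407 in tables of one layout. In these same settings target calls went from 27 to 17, 16 and 14, partner calls from 9 to 5, 5 and 4, and pathway calls from 2 to 1, 1 and 1. Pathway calls were also 1 with total counts alone, 4 with no filter and 1 to 3 on leaving out a library. Against fibroblast input, the 827 Dnmt1 RIP calls became 1335 (total counts alone), 1944 (no filter), 265 (DESeq2) and 0 to 850 (leaving out a library). The 1 pathway call became 3, 3, 0 and 0 to 1 in these settings, and 2 without the 4 dominant genes. For m5C RIP against input, the 8 calls became 37 (RLE), 2 (total counts alone), 211 (no filter), 185 (DESeq2) and 2 to 5816 (leaving out a library), and pathway calls 0 to 6.

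Estimates that turned sign on leaving out a Dnmt1 RIP library were Egln1 (-0.29 to 2.08) and Epas1 (-1.48 to 0.20) for Het against WT, and Egln1 (-2.06 to 0.31) for Hom against Het. Between the tissues they were Arnt (-0.0085 with RLE, -0.11 in tables of one layout, -0.13 to 0.33 on leaving out a library) and Hif1an (-0.0775 to 0.20). Between the antibodies they were Vhl (0.67 in WT libraries, 0.69 with the replicate block, 0.52 in tables of one layout) and Hif1an (0.0236 with total counts alone). The Vhl values use the Dnmt1 RIP libraries in which Vhl was chosen, so its turn is not independent of that choice. The cause of these turns was not tested. Fewer samples enter the subsets. Over all genes, deviations of same-numbered Dnmt1 RIP libraries correlated at -0.0059 (WT and Het), 0.2024 (WT and Hom) and 0.0589 (Het and Hom). Macrophage or microglia markers were lower in library 1 than in library 2 of each genotype. They summed to 176 and 1447 CPM in WT, 231 and 5062 CPM in Het and 239 and 1154 CPM in Hom. Fibroblast marker sums kept no such order, being higher in library 1 only in Het. A correlation over all genes does not settle whether some genes follow the replicate number, and this was not tested. The block left 0 calls in the 3 genotype comparisons. Counts of 6 to 28 for Vhl in a Dnmt1 RIP library limit its precision.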
